A study of Mus musculus with 8 samples.

Results

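The genes described here are the ligands, receptors, secreted inhibitors and transcription factors of WNT signalling, measured in a mouse kidney line given as fibroblasts and named RFB. Members were taken by symbol from the deposited table: Wnt, Fzd, Dkk, Sfrp and Rspo genes followed by a number, Lgr4 to Lgr6, symbols that start with Tcf7, and Lef1, Axin1, Axin2, Nkd1, Nkd2, Rnf43, Znrf3, Lrp5, Lrp6, Wif1, Porcn and Wls. This gave 59 of the 22274 genes in the table, all protein-coding. RNA was sequenced in 8 libraries, all from cells treated with TGF-β, a growth factor known to turn fibroblasts into matrix-producing cells. In 4 libraries the cells carried an adenovirus for the fluorescent protein GFP (ad-GFP, the control) and in 4 an adenovirus for Cre recombinase (ad-CRE). Cre removes DNA between loxP sites, but the labels describe no floxed allele. They name Suv39h1, a histone H3 lysine 9 methyltransferase, as the gene targeted in the series. They give no passage or clone for the line, and whether the 4 replicates came from separate cultures is not stated. The p-values here therefore reflect variation among these libraries, which may be technical only.

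WNT proteins are secreted lipid-modified ligands that bind Frizzled receptors, with LRP5 or LRP6 as co-receptors in the β-catenin branch. That branch stops the destruction of β-catenin, which then joins TCF/LEF factors at target genes; other branches act through planar cell polarity proteins without β-catenin. In the kidney, WNT ligands made by the ureteric bud and the metanephric mesenchyme drive nephron formation. The pathway is known to be active again in injured and fibrotic kidney.

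Among the tested WNT genes, more rose than fell in ad-CRE. Of the 59, 42 had enough reads to be tested (edgeR's quasi-likelihood test, Benjamini-Hochberg adjusted over all 13702 genes tested, threshold 0.05). Of those 42, 33 passed, a share of 78.6%, against 73.1% of all tested genes, so the count alone sets the family near the background. By direction, 22 members (52.4%) rose, against 36.8% of all tested genes, and 11 (26.2%) fell, against 36.3%. The median log2 fold change of the 42 was 0.28, and that of all tested genes was 0.000. The groups did not overlap in 30 of the 42 (71.4%, against 66.2% of all tested genes). A rise of at least 1 log2 unit was found in 6 of the 42, against 663 of all 13702 tested genes (4.84%). A fall of at least 1 was found in 5 of the 42, against 1292 of the 13702 (9.43%).

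**Figure D1:**
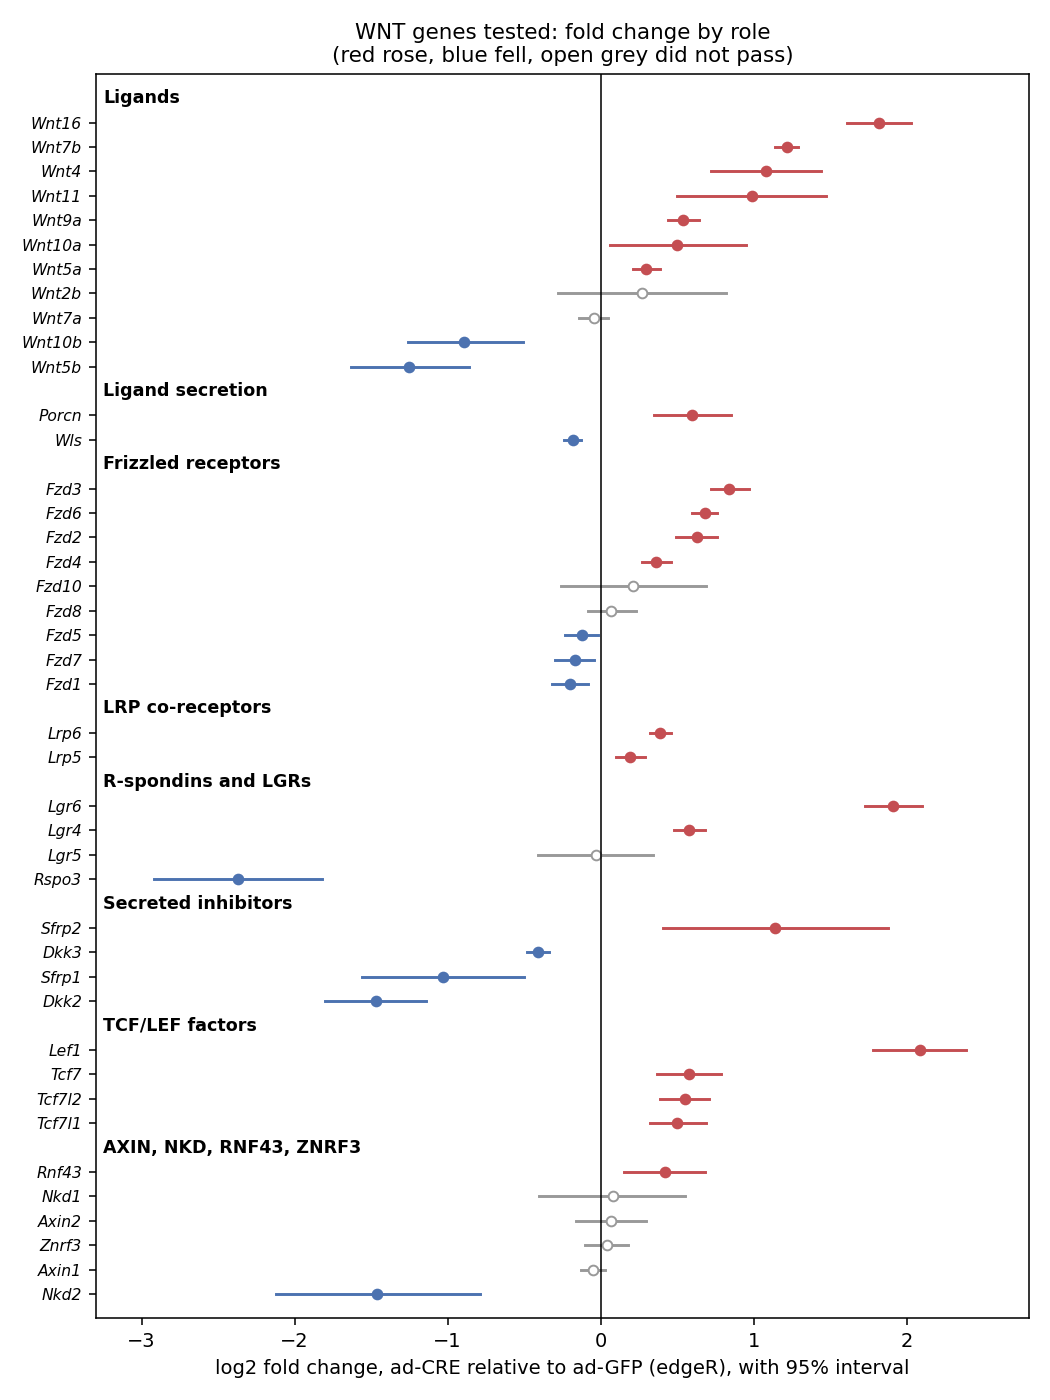
Log2 fold change of each of the 42 tested WNT genes, ad-CRE relative to ad-GFP (x axis, edgeR, n = 4 libraries a group), with bars for the 95% interval, grouped by role on the y axis. Filled red points rose, filled blue points fell and open grey points did not pass; Lef1, Lgr6 and Wnt16 lie farthest to the right at 2.09, 1.91 and 1.82, and Rspo3 farthest to the left at -2.37.

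The libraries held 15998257 to 22297598 counts each, and a count was found for 16359 to 16648 genes in ad-GFP and 15911 to 16169 in ad-CRE, with no overlap. Suv39h1 was at 37.2 to 44.1 CPM (counts scaled to the size of the library) in ad-GFP and 31.6 to 33.4 in ad-CRE, a log2 fold change of -0.35 (SE 0.053). Smarca4, which encodes the BRG1 ATPase of SWI/SNF chromatin remodelling complexes, fell by 3.07 on the log2 scale, from 288 ± 11.1 to 34.3 ± 3.20 CPM (mean ± SD, n = 4). The fall of Smarca4 was thus far larger than that of the gene the labels name as the target. Which gene Cre acted on cannot be told from the labels, so ad-CRE stands below for the libraries labelled that way and not for loss of Suv39h1. Cell type markers moved with the groups too. The summed CPM of 16 fibroblast markers was 3534 to 3647 in ad-GFP and 1885 to 2009 in ad-CRE, most of it from Vim (1614 and 693 on average) and Acta2 (1645 and 1132), the latter also in the smooth muscle list; 12 of 13 tested fell, Pdgfra rose, and Lum, Tcf21 and Fap stayed under 1 CPM. That of 19 tubular epithelial markers was 2746 to 2977 and 5275 to 5450.0; 9 of 16 tested rose and 5 fell, Slc34a1 and Slc12a3 were under 1 CPM and Aqp2 was at 0. Krt8, an epithelial keratin, was at 745 CPM in ad-GFP and 1983 in ad-CRE, and Cdh1, E-cadherin, at 204 and 484 CPM. The tubular markers that fell were Havcr1 (268 and 66.0 CPM), an injury marker, Cdh16 (218 and 138), Lrp2 (81.5 and 55.5), Cubn (11.1 and 6.24) and Slc12a1 (3.08 and 0.711). Thus the libraries labelled fibroblast hold epithelial transcripts in both groups. Endothelial markers summed to 170.1 to 184 and 72.3 to 80.7 CPM (9 of 9 tested fell, Cldn5 under 1 CPM). Leukocyte markers summed to 235 to 268 and 167 to 176 CPM (7 of 8 fell, Cd79a under 1 CPM, Cd3e at 0), and pericyte and smooth muscle markers to 2828 to 2995 and 1849 to 1948 CPM (5 of 7 fell, 1 rose, Rgs5 under 1 CPM). The part of these shifts in the WNT results was not tested, and in bulk RNA fewer cells of a type and less RNA per cell cannot be told apart.

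Of 19 ligand genes, 11 were tested, of which 7 rose and 2 fell, while 2 did not pass. The shares were 63.6% and 18.2%, against 36.8% and 36.3% of all tested genes. Wnt7b, the ligand known from the collecting duct where it orients growth of the kidney medulla, had the most transcript in both groups (chromosome 15, 85535437 to 85582473, minus strand, GRCm38 as are all positions here). Its CPM was 133, 129, 118 and 130.1 in ad-GFP and 296, 313, 297 and 279 in ad-CRE, each list in the order of the replicate numbers, as below. Every ad-CRE library was above every ad-GFP library, and the means were 128 ± 6.58 and 296 ± 14 (SD, n = 4). The log2 fold change was 1.22 (SE 0.035), or 2.32-fold, with an edgeR adjusted p of 1.67e-23.

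Wnt16, a ligand known from bone and joint tissue (chromosome 6, 22288227 to 22298522, plus strand), rose most on the log2 scale among the ligands. Its CPM was 5.63, 4.29, 4.55 and 4.72 in ad-GFP and 20, 16, 15.9 and 16 in ad-CRE. The first ad-CRE library stood above the other 3 of its group, and all 4 lay above ad-GFP. The log2 fold change was 1.82 (SE 0.103, edgeR adjusted p = 4.3e-16).

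Wnt4, which the metanephric mesenchyme needs to form tubules, had 1.51, 2.09, 2.19 and 1.74 CPM in ad-GFP and 3.98, 4.68, 3.93 and 3.28 in ad-CRE (log2 fold change 1.08, SE 0.175, edgeR adjusted p = 2.35e-06). Wnt9a had 33.3, 34.9, 33.4 and 30.6 CPM in ad-GFP and 49.9, 48.8, 48.7 and 44.9 in ad-CRE (0.54, SE 0.050, 4.35e-11). Both sets of groups were apart, with the lowest ad-CRE library above the highest ad-GFP library. Wnt11, which acts at the tip of the ureteric bud, had 0.852, 0.918, 1.10 and 0.621 CPM in ad-GFP and 1.72, 1.87, 1.67 and 1.73 in ad-CRE (0.99, SE 0.237, adjusted p = 0.000455). Wnt5a, the best known ligand of the branches that do not use β-catenin, had 43.4, 42.7, 39.4 and 40.2 CPM in ad-GFP and 52.3, 50.3, 51.7 and 49.5 in ad-CRE (0.30, SE 0.045, adjusted p = 8.88e-07). These groups were apart as well. Wnt10a, a ligand known from teeth and hair, had 1.61, 1.63, 1.10 and 1.06 CPM in ad-GFP and 1.90, 2.13, 1.99 and 1.73 in ad-CRE. The groups were narrowly apart, and it rose by 0.50 (SE 0.216, adjusted p = 0.0376). It did not pass with DESeq2 (adjusted p = 0.0736) or without any 1 of ad-GFP replicates 3 and 4 and ad-CRE replicates 1, 2 and 3 (0.0544 to 0.103).

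Wnt5b, a relative of Wnt5a (chromosome 6, 119432531 to 119544347, minus strand), moved the other way, with 3.22, 3.42, 3.29 and 3.98 CPM in ad-GFP and 1.13, 1.46, 1.85 and 1.38 in ad-CRE. Its log2 fold change was -1.25 (SE 0.187, edgeR adjusted p = 6.68e-07), with no overlap. Wnt10b, a ligand that holds back fat cell formation, had 3.60, 4.8, 4.32 and 3.85 CPM in ad-GFP and 2.49, 1.82, 3.01 and 1.5 in ad-CRE (-0.89, SE 0.183, 7.66e-05), also with no overlap. Of these pairs of related ligands, Wnt5a and Wnt5b passed in opposite directions. So did Wnt10a and Wnt10b, although Wnt10a did not pass in the alternative runs given above.

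Wnt7a, the closest relative of Wnt7b, did not pass. Its CPM was 75.9, 75.0, 65.3 and 78.9 in ad-GFP and 70.9, 74.2, 73.3 and 67.6 in ad-CRE, and the groups overlapped. The log2 fold change was -0.04 with a 95% interval of -0.14 to 0.05 (edgeR adjusted p = 0.388). Without ad-GFP replicate 3, its lowest library there, the value was -0.096 and passed (0.0407). Wnt2b did not pass either (0.27, interval -0.28 to 0.82, adjusted p = 0.375); ad-CRE replicate 3 was at 2.31 CPM, the other 3 at 0.989 to 1.27, and without that library the value was -0.092.

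Levels of different genes were compared on FPKM, the authors' count per length of transcript. In ad-GFP the order of ligands was Wnt7b (40.9 ± 2.17 FPKM, SD, n = 4), Wnt7a (23.5 ± 1.86), Wnt9a (10 ± 0.560), Wnt5a (9.09 ± 0.369) and Wnt16 (2.87 ± 0.414), with Wnt9a and Wnt5a overlapping. In ad-CRE it was Wnt7b (92.1 ± 4.5), Wnt7a (22.3 ± 0.943), Wnt9a (14.3 ± 0.663), Wnt5a (10.9 ± 0.267) and Wnt16 (10.1 ± 1.02), with Wnt5a and Wnt16 overlapping. The other ligands were at 1.75 FPKM or less on average in both groups. FPKM summed over the 19 ligands was 86.3 to 95.7 in ad-GFP and 145 to 161 in ad-CRE. Wnt7b took 43.9% to 44.9% of that sum in ad-GFP and 58.7% to 60.4% in ad-CRE, while the share of Wnt7a was 24.1% to 27.0% and 14.2% to 14.6%. The ratio of Wnt7b to Wnt7a was 1.66 to 1.82 in ad-GFP and 4.04 to 4.2 in ad-CRE. Thus the ligand pool was larger in each ad-CRE library and more of it was Wnt7b.

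**Figure D2:**
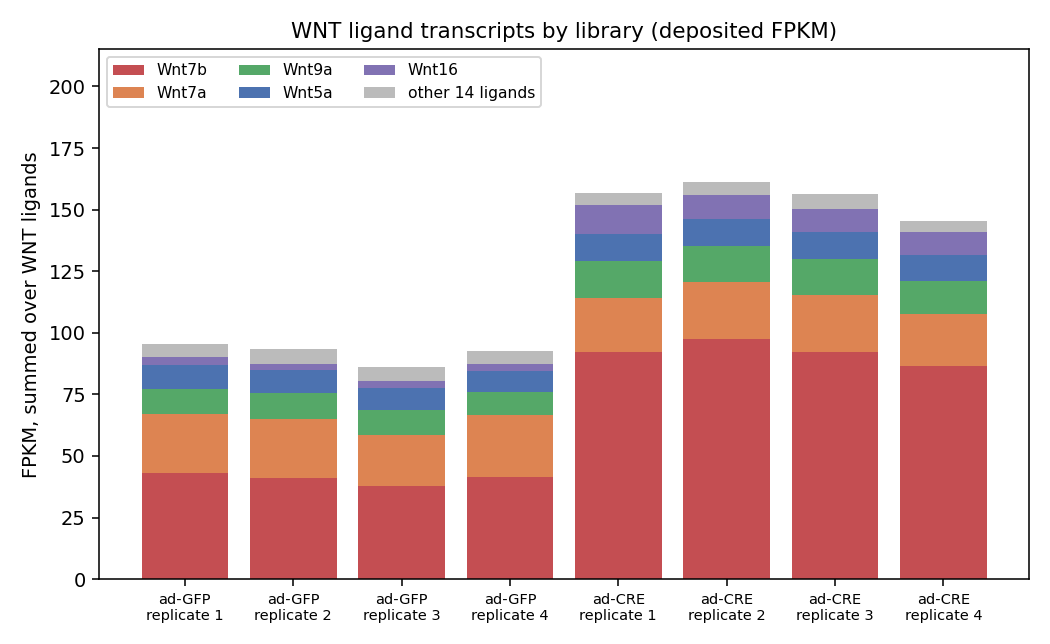
Deposited FPKM of the WNT ligands stacked in each of the 8 libraries (y axis, sum over the 19 ligand genes). The ad-CRE bars reach 145 to 161 against 86.3 to 95.7 in ad-GFP, and the Wnt7b segment is the one that grows most.

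Ligands leave the cell only after the acyltransferase Porcn has attached a lipid and the carrier Wls has taken them to the membrane. Wls had 381, 394, 402 and 402 CPM in ad-GFP and 357, 335, 338 and 361 in ad-CRE, or -0.18 on the log2 scale (SE 0.028, edgeR adjusted p = 8.68e-07). Porcn had 3.88, 5.26, 5.48 and 4.6 CPM in ad-GFP and 7.65, 7.60, 6.48 and 7.31 in ad-CRE, or 0.60 on the log2 scale (SE 0.122, 6.62e-05). So both passed with no overlap, and on the log2 scale Wls fell by less than Porcn rose. FPKM summed over both genes, most of it from Wls, was 155 to 163 in ad-GFP and 135 to 144 in ad-CRE.

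Of 10 Frizzled genes, 9 were tested, of which 4 rose and 3 fell, while 2 did not pass. These shares (44.4% and 33.3%) lay near those of all tested genes (36.8% and 36.3%). Fzd6, a receptor best known from planar polarity of the skin (chromosome 15, 39006034 to 39038188, plus strand), led the family in both groups. It had 94.7, 84.9, 94.5 and 87.8 CPM in ad-GFP and 153, 141, 138 and 149 in ad-CRE (0.68, SE 0.038, edgeR adjusted p = 3.77e-16). Fzd3, its closest relative, had 14.9, 15.2, 15.1 and 16 CPM in ad-GFP and 26.6, 28.3, 26.4 and 28.5 in ad-CRE (0.84, SE 0.060, 1.11e-13). Neither gene's groups overlapped.

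Fzd2 had 17.9, 14.8, 15.5 and 15.0 CPM in ad-GFP and 25.4, 24.6, 24.8 and 23.1 in ad-CRE (0.63, SE 0.066, adjusted p = 8.45e-10). Fzd4, also the receptor of the ligand norrin, had 32.6, 31.3, 33.3 and 34.8 CPM in ad-GFP and 44.5, 41.6, 41.9 and 41.3 in ad-CRE (0.36, SE 0.049, 8.85e-08). Both were higher in every ad-CRE library. Fzd1, Fzd2 and Fzd7 form a subgroup of close relatives, as do Fzd5 and Fzd8. The 3 Frizzled genes that fell, Fzd1, Fzd7 and Fzd5, come from these subgroups, but Fzd2 rose and Fzd8 did not pass. Fzd1 had 32.0, 27.4, 28.9 and 29.9 CPM in ad-GFP and 27.2, 24.8, 24.2 and 26.7 in ad-CRE (-0.20, SE 0.058, 0.00281). Fzd7 had 29.2, 25.6, 27.2 and 27.6 CPM in ad-GFP and 26.8, 22.8, 25.4 and 21.7 in ad-CRE (-0.17, SE 0.063, 0.0148). Fzd5 had 43.5, 40.7, 39.5 and 42.4 CPM in ad-GFP and 36.0, 36.7, 40.5 and 39.6 in ad-CRE (-0.12, SE 0.050, 0.0288). The groups of Fzd1 barely missed each other, and those of Fzd7 and Fzd5 overlapped. Fzd7 no longer passed without ad-GFP replicate 1 or ad-CRE replicate 2 or 4 (0.0599 to 0.0725). Fzd5 no longer passed without any 1 of ad-GFP replicates 1 and 4 and ad-CRE replicates 1 and 2 (0.0662 to 0.122), without the filter on low counts (0.0592) or on FPKM (0.0736 and 0.0752). In the authors' deposited table the FDR of Fzd5 was 0.0805 and that of Wnt10a 0.106. Fzd8 (0.07, interval -0.08 to 0.23) and Fzd10 (0.21, interval -0.26 to 0.69) did not pass.

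On FPKM, Fzd6 was first in both groups, at 22 ± 1.22 in ad-GFP and 34.6 ± 1.59 in ad-CRE. Below it, Fzd1, Fzd5 and Fzd7 (7.10 to 6.10 on average) came before Fzd4 (4.95) and Fzd2 (4.36) in ad-GFP. In ad-CRE these 5 genes ran from Fzd2 at 6.61 to Fzd7 at 5.29, each overlapping its neighbour in the order. Fzd6 made up 39.1% to 41.6% of summed Frizzled FPKM in ad-GFP and 48.1% or more in every ad-CRE library. The co-receptor genes rose as well. Lrp6 had 113, 118, 115 and 116 CPM in ad-GFP and 158, 153, 141 and 153 in ad-CRE (0.39, SE 0.034, edgeR adjusted p = 1.63e-11). Lrp5, known also for its part in bone mass, had 42.6, 41.4, 39.4 and 39.6 CPM in ad-GFP and 47.3, 49.0, 46.8 and 43.4 in ad-CRE (0.19, SE 0.048, 0.00061). Both co-receptors were thus higher in every ad-CRE library.

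**Figure D3:**
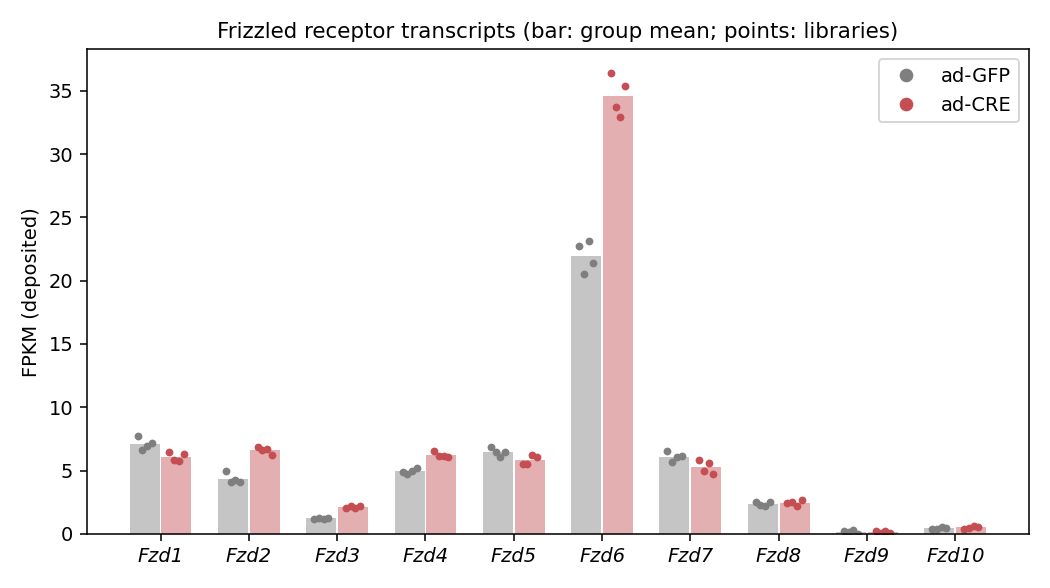
Deposited FPKM (y axis) of the 10 Frizzled genes, with bars for the mean of 4 libraries and points for single libraries, grey for ad-GFP and red for ad-CRE. Fzd6 stands at 22 and 34.6, above every other member, and Fzd2 goes from 4.36 to 6.61, where its points overlap those of Fzd4.

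R-spondins are secreted proteins that bind LGR4, LGR5 or LGR6 and shield Frizzled receptors from removal by the ubiquitin ligases RNF43 and ZNRF3. Lgr6, a receptor known from stem cells of the skin (chromosome 1, 134983301 to 135105276, minus strand), had 4.92, 5.41, 4.78 and 5.16 CPM in ad-GFP and 17.6, 18.8, 21.4 and 18.7 in ad-CRE. All ad-CRE libraries were more than 3 times the highest ad-GFP library, and the rise was 1.91 on the log2 scale (SE 0.090, edgeR adjusted p = 4.64e-18). Lgr4, the LGR with the most transcript here, had 39.1, 40.9, 37.8 and 39.6 CPM in ad-GFP and 63.8, 57.4, 54.0 and 59.8 in ad-CRE (0.58, SE 0.049, 8.83e-12). Lgr5, the stem cell marker of the gut, did not pass, at 2.05 to 2.54 and 1.90 to 2.59 CPM (-0.03, interval -0.41 to 0.34).

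Rspo3 was the only R-spondin with enough reads to be tested, and it had the largest fall among the WNT genes tested (chromosome 10, 29452416 to 29535867, minus strand). It had 1.99, 2.70, 3.69 and 2.05 CPM in ad-GFP and 0.498, 0.572, 0.555 and 0.346 in ad-CRE, from 192 and 40 reads in all. The groups were apart, and the log2 fold change was -2.37 (SE 0.271, 5.17-fold lower, edgeR adjusted p = 4.54e-09). On FPKM, the share of Lgr6 in the R-spondin and LGR sum was 8.96% ± 0.696 in ad-GFP and 19.6% ± 2.33 in ad-CRE, and that of Rspo3 9.33% ± 3.43 and 1.29% ± 0.338. The receptors Lgr4 and Lgr6 thus rose while the tested ligand fell.

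Of 9 secreted inhibitor genes, 4 were tested, of which 3 fell and 1 rose. Among all tested genes, 36.3% fell and 36.8% rose. DKK proteins block the LRP co-receptors, although Dkk3 is a divergent member that is not known as a plain LRP blocker, and SFRP proteins bind WNT ligands directly. Dkk3 (chromosome 7, 112116017 to 112159057, minus strand) held 94.4% ± 0.764 of the inhibitors' summed FPKM in ad-GFP and 96.1% ± 0.383 in ad-CRE. It had 149.9, 155, 159.9 and 143 CPM in ad-GFP and 112, 115, 118 and 114 in ad-CRE (-0.41, SE 0.034, edgeR adjusted p = 3.34e-12). Dkk2 had 4.40, 6.23, 6.46 and 6.27 CPM in ad-GFP and 2.17, 1.61, 2.13 and 2.48 in ad-CRE (-1.47, SE 0.162, 2.09e-09). Both had lower values in every ad-CRE library, and the first ad-GFP library was the lowest of its group for Dkk2.

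Sfrp1 fell by 1.03 on the log2 scale (SE 0.258, adjusted p = 0.000736), with 1.80, 1.73, 1.33 and 1.74 CPM in ad-GFP and 1.13, 0.885, 0.509 and 0.691 in ad-CRE. Sfrp2 went the other way, by 1.14 (SE 0.358, 0.00534), on 29 reads in ad-GFP and 70 in ad-CRE in all. Their groups did not overlap. FPKM summed over the 9 inhibitors was 45.9 to 51.0 in ad-GFP and 34.5 to 35.8 in ad-CRE.

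All 4 TCF/LEF genes rose, against 36.8% of all tested genes. Lef1, an activating partner of β-catenin that is itself a known WNT target (chromosome 3, 131110471 to 131224356, plus strand), had the largest rise among the WNT genes tested. It had 1.85, 1.94, 1.61 and 1.68 CPM in ad-GFP and 6.51, 7.08, 9.16 and 7.49 in ad-CRE, from 132 and 608 reads. The groups were far apart, and the log2 fold change was 2.09 (SE 0.149, 4.24-fold, edgeR adjusted p = 1.41e-13).

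Tcf7, which encodes TCF1 of T cells, had 6.30, 6.07, 5.36 and 5.84 CPM in ad-GFP and 8.28, 9.0, 9.58 and 8.47 in ad-CRE (0.58, SE 0.103, adjusted p = 1.05e-05). Tcf7l2, which encodes TCF4 of the gut and liver, had 10.9, 11.3, 12.6 and 12.5 CPM in ad-GFP and 15.7, 17.2, 17 and 19.2 in ad-CRE (0.55, SE 0.078, 2.83e-07). Tcf7l1, which encodes the mostly repressive TCF3, had 14.1, 10.4, 13.1 and 12.3 CPM in ad-GFP and 15.0, 17.6, 19.7 and 18.7 in ad-CRE (0.50, SE 0.088, 7.73e-06). None of the 3 had overlapping groups. On FPKM the order was Tcf7l1, Tcf7l2, Tcf7 and Lef1 in both groups, with Tcf7l1 and Tcf7l2 overlapping. Lef1 made up 4.68% ± 0.760 of the summed FPKM of the 4 in ad-GFP and 11.9% ± 0.599 in ad-CRE. It remained the lowest of the 4 per length.

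**Figure D4:**
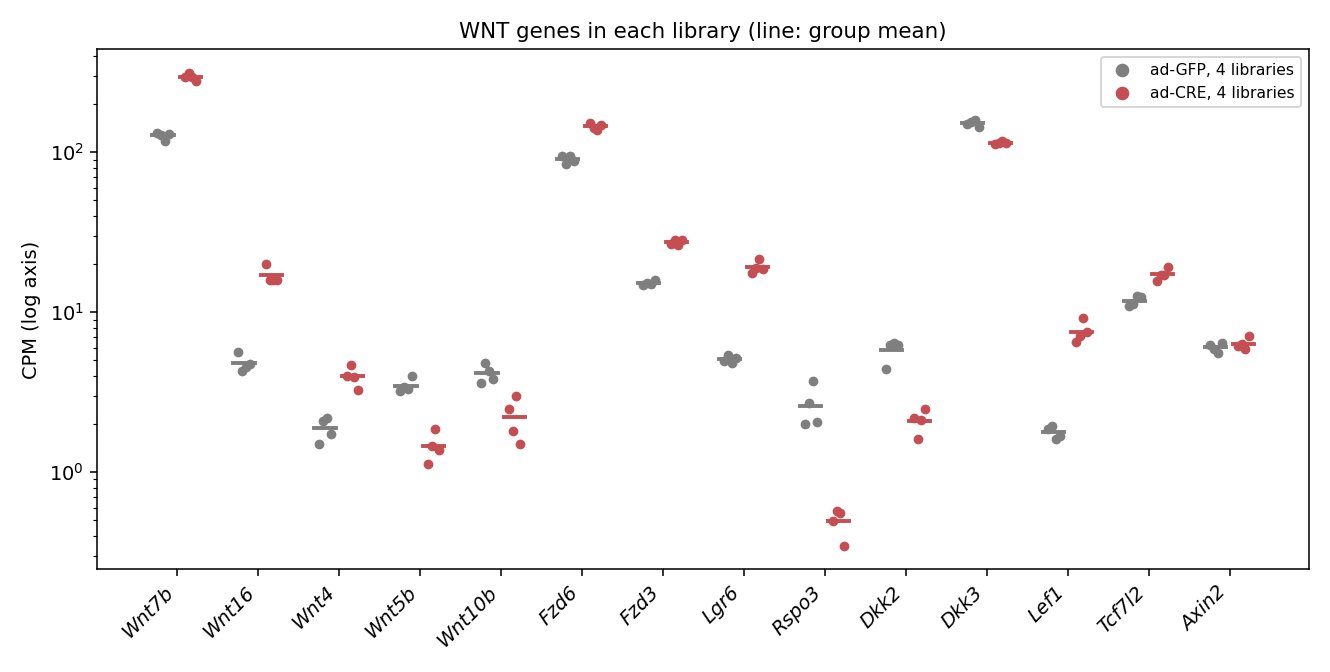
CPM of 14 WNT genes in each library (y axis on a log scale), grey points for 4 ad-GFP and red for 4 ad-CRE libraries, with a line at the group mean. Lef1, Lgr6, Wnt16 and Wnt7b lie higher in every ad-CRE library and Rspo3, Dkk2 and Wnt5b lower, while the Axin2 points of the groups overlap.

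The 6 remaining members restrain the pathway, inside the cell or at its surface, and 1 of them rose, 1 fell and 4 did not pass. The share that passed was 33.3%, against 73.1% of all tested genes. Axin2, the most used readout gene of the β-catenin branch, did not pass, with 6.25, 5.87, 5.59 and 6.46 CPM in ad-GFP and 6.11, 6.35, 5.88 and 7.14 in ad-CRE. The groups overlapped, and the log2 fold change was 0.07 with a 95% interval of -0.16 to 0.30 (edgeR adjusted p = 0.58). Axin1, the scaffold of the β-catenin destruction complex, had 65.7, 65.2, 62.2 and 64.8 CPM in ad-GFP and 62.7, 60.2, 64.1 and 62.7 in ad-CRE. It did not pass (-0.05, interval -0.13 to 0.03, adjusted p = 0.283), but it did on FPKM (-0.097, adjusted p = 0.04, and -0.10, 0.0402, with limma).

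Of the ubiquitin ligases that remove Frizzled receptors, Znrf3 did not pass (0.04, interval -0.10 to 0.18, adjusted p = 0.581). Rnf43 had 5.49, 4.03, 5.53 and 4.6 CPM in ad-GFP and 6.83, 6.87, 5.27 and 7.37 in ad-CRE, and rose by 0.42 (SE 0.130, 0.00539) although its groups overlapped. NKD proteins bind Dishevelled and restrain signalling. Nkd1 did not pass (0.08, interval -0.40 to 0.55, adjusted p = 0.777). Nkd2 fell by 1.46 (SE 0.326, 0.000208) on 87 and 34 reads, with 0.749 to 1.68 CPM in ad-GFP and 0.362 to 0.518 in ad-CRE. It did not pass on FPKM (0.092 and 0.0729 with limma), where it was at 0.340 ± 0.125 and 0.193 ± 0.107.

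The other 17 members were too low to test. Among the ligands, Wnt2 had 37 reads in ad-GFP and 2 in ad-CRE, and Wnt3 had 38 and 13. The inhibitor Sfrp4 had 68 and 22 reads. Without the filter on low counts these 3 passed as lower in ad-CRE (edgeR adjusted p = 2.11e-06, 0.00675 and 0.000123). Fzd9 had 27 and 31 reads, Rspo1 12 and 26, and Wnt1 8 and 10. Dkk4 had none in any library, where up to 3 counts a library cannot be told from 0. The remaining 10, Wnt3a, Wnt6, Wnt8a, Wnt8b, Wnt9b, Dkk1, Sfrp5, Wif1, Rspo2 and Rspo4, had 10 reads or fewer in each group, so no difference was detectable at this depth.

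By position, 4 pairs of ligand genes are neighbours, and in none were both tested. Wnt10a, which rose, lies 6.2 kb from Wnt6, and Wnt9a, which rose, 16.2 kb from Wnt3a. Wnt10b, which fell, lies 11.7 kb from Wnt1, and the untested Wnt9b and Wnt3 are 24.3 kb apart. Exons of 10 members overlap a gene on the other strand (Wnt7b, Wnt5a, Wnt11, Fzd5, Fzd6, Rspo3, Sfrp2, Lef1, Tcf7l1 and Axin2). The sources used here do not state whether counting used strand, so reads of the 2 strands may be joined in these.

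Sequences upstream of the transcription start were read for the letters CTTTGA, the core of the TCF/LEF motif, on both strands (TCAAAG on the other). The 7-letter form CTTTGAT, which contains it, was searched likewise. RefSeq promoters (GRCm38.p6) were found for 39 of the 59 members, in 48 windows of 250 bases. CTTTGA was in 5 of the 48 (10.4%) against 13.8% of all 32851 windows in the table, and CTTTGAT in 2 (4.17%) against 3.21%. The 5 windows belong to Dkk1, Fzd1, Lef1, Wnt11 and Wnt5b. A match describes letters only. The windows below are shown because Lef1 rose most, because Wnt11 rose and Wnt5b fell with the same 7 letters near a start, and because Wnt16, the ligand with the largest log2 rise, has no match; capitals mark the motif, 5′ to 3′ on the gene's strand, up to the base before the start.
Lef1, outermost start, chr3:131110047-131110296, plus strand: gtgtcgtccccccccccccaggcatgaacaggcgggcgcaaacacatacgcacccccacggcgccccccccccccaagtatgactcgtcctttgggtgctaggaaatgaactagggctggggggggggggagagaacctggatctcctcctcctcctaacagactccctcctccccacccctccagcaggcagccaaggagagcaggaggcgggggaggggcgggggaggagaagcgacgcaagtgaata
Lef1, innermost start, chr3:131156044-131156293, plus strand: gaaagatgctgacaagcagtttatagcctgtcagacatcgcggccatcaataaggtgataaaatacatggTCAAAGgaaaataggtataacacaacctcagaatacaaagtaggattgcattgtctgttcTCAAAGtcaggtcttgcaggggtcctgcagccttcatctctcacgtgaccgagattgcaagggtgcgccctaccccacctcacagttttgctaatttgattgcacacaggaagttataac
Wnt11, outermost start, chr7:98834862-98835111, plus strand: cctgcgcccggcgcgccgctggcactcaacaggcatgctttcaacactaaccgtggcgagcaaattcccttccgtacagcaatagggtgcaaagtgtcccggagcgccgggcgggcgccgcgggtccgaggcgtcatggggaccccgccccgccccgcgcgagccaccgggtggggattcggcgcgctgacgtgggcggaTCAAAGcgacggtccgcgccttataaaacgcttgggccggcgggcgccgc
Wnt5b, innermost start, chr6:119449387-119449636, minus strand: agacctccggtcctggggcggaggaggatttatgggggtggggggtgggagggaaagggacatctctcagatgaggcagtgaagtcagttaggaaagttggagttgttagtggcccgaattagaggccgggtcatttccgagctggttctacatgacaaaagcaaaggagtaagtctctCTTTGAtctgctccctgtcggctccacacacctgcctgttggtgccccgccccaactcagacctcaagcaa
Wnt16, chr6:22287977-22288226, plus strand: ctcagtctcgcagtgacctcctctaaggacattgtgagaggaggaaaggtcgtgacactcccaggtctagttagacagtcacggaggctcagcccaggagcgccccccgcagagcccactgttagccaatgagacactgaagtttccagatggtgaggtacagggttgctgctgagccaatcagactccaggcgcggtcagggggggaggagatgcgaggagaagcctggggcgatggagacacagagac
In Lef1 the motif begins at -180 and -120 from its innermost start and is in none of the other 3 windows of the gene. In Wnt11 it begins at -50 and in Wnt5b at -71. The counts are per gene, so they do not tell which start was used.

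Genes of the pathway outside the family were taken from lists by role. Among the 98 tested, 56 were higher and 28 lower past the threshold, 14 did not pass it, and the median log2 fold change was 0.19. Of all tested genes, 36.8% rose and 36.3% fell. Of the genes named below, exons of Dvl1, Ctnnb1, Hbp1, Ccnd1, Csnk1e, Ctnnbip1, Vangl1, Fst, Tle1 and Sox17 overlap a gene on the opposite strand. For the first 4 that gene is in the table (Tas1r3, Ulk4, Cog5 and LTO1). Exons of Dvl2 and Tle2 overlap Acadvl and Gm15917 on that strand. Among 8 co-receptor genes 5 rose and 3 fell. Ptk7, a planar polarity co-receptor, rose by 0.78 (from 83.9 to 144 CPM), Kremen1, a DKK receptor, by 0.72, the WNT5A receptor gene Ror1 by 0.66, and Ryk by 0.08 with overlapping groups. Ror2, the other ROR gene of the list, fell by 0.55 (from 2.89 to 1.98 CPM). Ryk no longer passed without ad-GFP replicate 4 (adjusted p = 0.0797) or ad-CRE replicate 2 (0.0718). Among 13 planar polarity genes 10 rose and 1 fell. Vangl1 rose by 0.66 and the formin gene Daam1 by 0.44, while Prickle2 fell by 1.76, from 24.8 to 7.28 CPM (edgeR adjusted p = 2.52e-18).

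In the cytoplasmic list 15 of 26 rose and 2 fell. The Dishevelled genes Dvl1 and Dvl3 rose by 0.54 and 0.50, while Dvl2 fell by 0.46 (from 33.3 to 24.2 CPM). The kinase gene Csnk1e rose by 0.30. Ctnnb1, which encodes β-catenin, was at 946 CPM in ad-GFP and 1013 in ad-CRE (0.10, SE 0.021, edgeR adjusted p = 0.000149). In the nuclear list 10 of 15 rose and 4 fell. Bcl9, a coactivator that binds β-catenin, rose by 0.95, and Ctnnbip1, which keeps β-catenin from TCF factors, by 1.22. The repressor gene Hbp1 rose by 0.45. The 4 that fell, named after their values were seen, were the corepressor genes Tle4 (-0.74) and Tle1 (-0.61), the inhibitory factor gene Sox17 (-0.67) and the coactivator gene Crebbp (-0.14). Of the other TLE genes in the list, Tle2 rose by 0.99 (from 3.07 to 6.10 CPM) and Tle3 did not pass (0.01). The largest change in the list was that of Pygo1, another coactivator gene, which rose by 1.95 from a low level (from 0.787 to 3.04 CPM). Genes of repressing proteins thus passed in both directions. Among the coactivator genes only Crebbp fell (-0.14), while Bcl9 and Pygo1 rose.

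Of 7 secreted or membrane modulators tested, 6 fell, none rose and the median was -0.46. Draxin, a DKK-like guidance protein gene, fell by 1.54 (from 1.30 to 0.440 CPM), Bambi, a transmembrane pseudoreceptor of the TGF-β family, by 1.23, Cthrc1, a secreted cofactor of WNT5A signalling, by 0.70, and Tsku, a secreted Frizzled-binding protein gene, by 0.18. Tsku had overlapping groups and did not pass without ad-GFP replicate 1 (adjusted p = 0.0509) or ad-CRE replicate 1 (0.0563). Among 29 reported targets of WNT signalling, which other pathways regulate too, 16 rose and 12 fell with a median of 0.24. Fst, which encodes the activin binder follistatin, rose by 1.52 (from 129 to 368 CPM), Sox9 by 1.41 (from 26.8 to 71.4 CPM) and the cyclin gene Ccnd1 by 0.61. Ccn5 had the largest rise of the list, by 2.07 from a low level (from 0.763 to 3.13 CPM). Of the 12 that fell, Tnfrsf19 fell most, by 2.19 (from 3.19 to 0.688 CPM), then Twist1 by 1.68 and Snai2 by 1.47. The genes of this list passed in both directions.

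**Figure D5:**
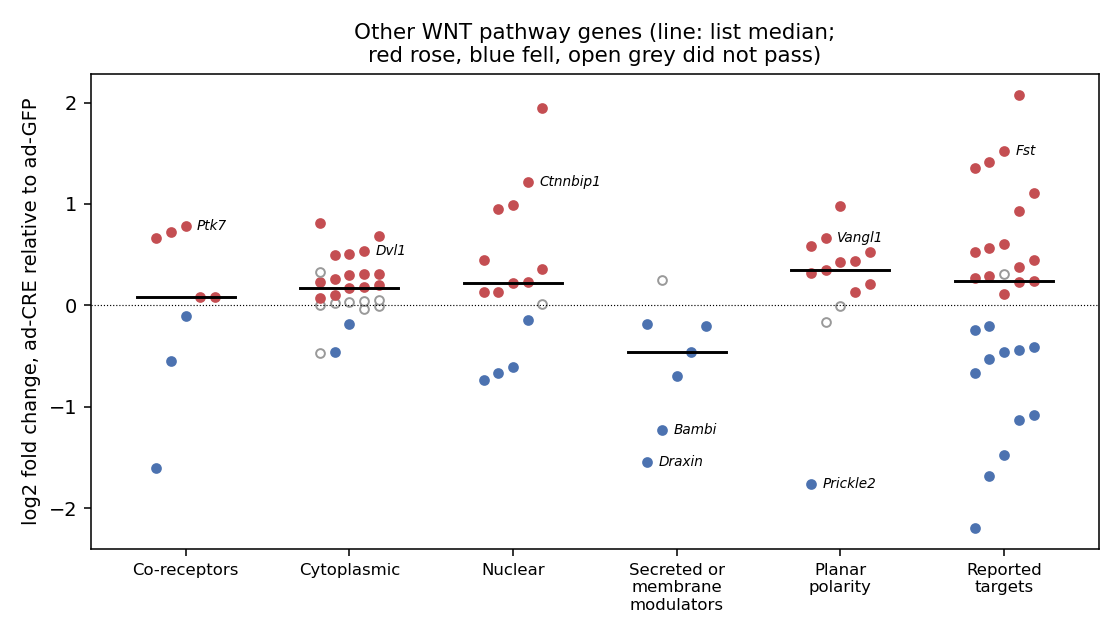
Log2 fold change, ad-CRE relative to ad-GFP (y axis), of the 98 tested pathway genes outside the family, 1 point a gene, by list on the x axis, with a line at the list's median. Red points rose, blue fell and open grey did not pass; none of the secreted or membrane modulators rose, and the 10 planar polarity genes that rose stand against Prickle2 at -1.76.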

How the data were processed

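RNA-seq libraries were made with a SMARTer kit from RNeasy-extracted RNA, per the labels' protocols. The submitters' processing notes name GRCm38 and mm10. The aligner, counter and annotation were not given in the sources used here. Per the file headers, the authors deposited read counts and FPKM for each of 8 libraries, and a log2 fold change and an FDR (an adjusted p-value) computed by the authors. Totals were 15998257 to 22297598 counts. Counts were filtered (filterByExpr), scaled (TMM) and tested with edgeR 4.0.16 in R 4.3.3, group as the only term, Benjamini-Hochberg over 13702 genes. Intervals cover 95%. FPKM was used between genes and in limma 3.58.1 alternatives; DESeq2 1.42.0 was another. Positions come from GENCODE for GRCm38. Members and lists were chosen with earlier results of these data known. Values in each library are given for called members whose mean log2 CPM is 0 or more and for the top FPKM member of a role, and Wnt7a and Axin2 were added; in each pathway list the 3 genes of smallest p and the 1 of highest FPKM are named, except 1 that is not reported here. These additions, the markers named singly, and Ror2, Dvl2, Tle2, Tle3, Pygo1, Ccn5, Tnfrsf19, Twist1 and Snai2 were chosen after seeing the values. The test was also run on simulated counts, in which far fewer genes changed than passed here. That run does not tell how the scaling or the error rate behaves in these data.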

Additional observations from a re-analysis of the deposited data

Results flagged for a closer look

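In 3 of 64 groups of 4 libraries, taken over 32 members, 1 library stood apart from the rest of its group by more than the 95% critical value of Dixon's test, which chance alone exceeds in about 5% of groups. Wnt16 was at 20 CPM in ad-CRE replicate 1 and at 15.9 to 16 in the others, a gap of 0.973 of the group's range. Dkk2 was at 4.40 CPM in ad-GFP replicate 1 and at 6.23 to 6.46 in the others, a gap of 0.887. Sfrp1 was at 1.33 CPM in ad-GFP replicate 3 and at 1.73 to 1.80 in the others, a gap of 0.865. The 3 genes kept their direction and their side of the threshold without each of these libraries.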

How the results depend on the processing

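Of the 33 members past the threshold, 29 kept their sign and their side of it under every alternative run in which they were tested; the exceptions were Fzd5, Fzd7, Wnt10a and Nkd2. With a filter of 5 CPM in 4 libraries, 28 members were tested and 5 fell, and 76 pathway genes were tested and 18 fell, fewer because fewer genes were tested. Without 1 library at a time, 21 to 22 members rose and 9 to 12 fell, and 53 to 56 pathway genes rose and 23 to 28 fell. Signs reversed only in members that did not pass, without 1 library: Lgr5 ranged from -0.14 to 0.031 on the log2 scale, Nkd1 from -0.048 to 0.22 and Wnt2b from -0.092 to 0.40. Ryk (adjusted p = 0.0718 to 0.162) and Tsku (0.0509 and 0.0563) did not pass under some alternatives. With a replicate block, 22 members rose and 11 fell, and 55 and 28 pathway genes. Libraries that share a number did not visibly deviate together (correlations of 0.033, -0.038, -0.07 and 0.072). Those with different numbers ranged from -0.128 to 0.109. The labels do not say what a number shares, and correlations this weak cannot exclude that some samples are paired. Other scalings and filters moved the median of all genes by -0.047 to 0.006. Low members (Rspo3, Sfrp2, Nkd2, Wnt2) rest on few reads, and no value tells library spread from that between cultures.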
